A study of Mus musculus with 5 samples.

Results

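The caspase-8 pathway of death receptors was examined in cultured mouse cells that the labels call aortic endothelial cells, the inner lining of the vessel. The title of the series instead names smooth muscle cells of the aorta. Its members were named as Tnfrsf10b, Tradd, Ripk1, Fadd, Casp8, Cflar, Bid and Xiap, 8 genes in all, and every probe set whose single symbol in the platform annotation was one of these was taken. This gave 23 of the 45101 probe sets and 7 of the 18194 genes with a probe set. Ripk1, the kinase that sits between survival and death signalling, was not analysed here. By title, 2 arrays were TNF-LTBR and 3 were control, each at 24 h, all from mice of C57BL/6J background and all from cells grown in 1 medium with heparin and endothelial growth supplement. TNF is an inflammatory cytokine, and LTBR is the lymphotoxin beta receptor. The sources used here give neither the agonists behind TNF-LTBR nor their doses, and the treatment text is the same for both groups and names only PBS, so the groups rest on the titles. The comparison asked how transcripts of the pathway in TNF-LTBR cultures stood against those in control cultures. The labels do not tell whether the arrays within a group are separate cultures or animals, and p-values therefore cover the spread between these arrays alone, which may be technical.

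Death receptors are members of the TNF receptor superfamily that carry a death domain in their cytoplasmic tail. Engaged by ligand, they recruit the adaptor FADD, directly or through TRADD, and FADD gathers procaspase-8, which is activated by pairing and then cleaves the executioner caspases and the BH3 protein BID. The caspase-like protein c-FLIP, encoded by Cflar, limits this step, XIAP blocks the caspases further down, and TNF receptor 1 itself normally signals survival through NF-kB, so that endothelial cells given TNF alone usually live.

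Array values were probe set intensities as deposited. Differences are TNF-LTBR minus control in log2(intensity + 16), folds are on that scale and understate differences of dim genes, and errors are SD with n = 2 TNF-LTBR and n = 3 control arrays unless an interval is named. Each gene was represented by its brightest probe set, and the brightest 60% by mean entered the test, 10916 genes that lay above an intensity of about 128. All 7 genes passed this filter. Tnfrsf10b did so only through the TNF-LTBR arrays, with a mean log2 value of 7.84 there and 7.10 in control. The lowest mean tested was 7.17.

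Casp8 and Cflar lie side by side on chromosome 1, with 0 protein-coding genes between them in the RefSeq table, and encode the caspase and the protein that restrains it. The 250 bases before their RefSeq start sites (GRCm38.p6, plus strand, 5′ to 3′) are shown because the members are neighbours and Casp8 had the smallest p among the 7, with matches to any of 3 motifs in capitals. These lie at chr1:58802252-58802501 for Casp8 and chr1:58711241-58711490 for Cflar.
Casp8: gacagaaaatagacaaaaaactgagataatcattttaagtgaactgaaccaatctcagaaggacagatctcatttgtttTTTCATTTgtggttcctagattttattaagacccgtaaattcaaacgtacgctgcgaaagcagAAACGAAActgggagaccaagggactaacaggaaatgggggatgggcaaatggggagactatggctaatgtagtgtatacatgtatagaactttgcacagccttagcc
Cflar: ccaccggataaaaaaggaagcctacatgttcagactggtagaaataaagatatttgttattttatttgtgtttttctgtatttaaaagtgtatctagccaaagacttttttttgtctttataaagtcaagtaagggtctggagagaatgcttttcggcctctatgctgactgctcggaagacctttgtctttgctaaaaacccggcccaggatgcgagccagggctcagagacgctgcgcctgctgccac
The motifs, searched on both strands, were the NF-kB consensus, the IRF core AANNGAAA, which interferon regulatory factors recognise, and the STAT site TTCNNNGAA; no match overlapped another. The Casp8 window held the IRF core at 108 bases before the start, as AAACGAAA, and at 171 bases on the other strand. The Cflar window held none of the 3. Of 32851 RefSeq promoter windows of this length, 21.3% held the IRF core, 7.25% the NF-kB consensus and 7.02% the STAT site. The IRF core is thus common, and a match is only a stretch of letters. Windows of Bid, Fadd and Xiap, which RefSeq also lists, held none of the 3. Of the windows of Ripk1, whose transcript was not analysed, 1 held the STAT site, at 108 and at 11 bases before the start. The motifs were chosen after the Casp8 window had been read.

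No pathway member passed the threshold in limma, with Benjamini-Hochberg adjustment over all genes tested (0 of 7, smallest adjusted p 0.999). Across all 10916 genes the share called was 0% in either direction, and 192 genes, 1.76%, had an unadjusted p under 0.05. Casp8 was the 1 member among these. Casp8 and Tradd were higher on both TNF-LTBR arrays than on any control, 2 of 7 members against 6.94% of all genes tested, and Xiap was lower on both than on any control, 1 of 7 against 6.34%. The median difference of the 7 members was 0.20, against -0.0035 for all genes tested. This median is the value of the brightest Tradd probe set, and Tradd differed by 0.045 with the mean of its probe sets. The members were chosen with earlier results of these data known. With 2 and 3 arrays, the smallest two-sided p of an exact permutation test is 0.1, and the small number of arrays limits the precision of every value.

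**Figure D1:**
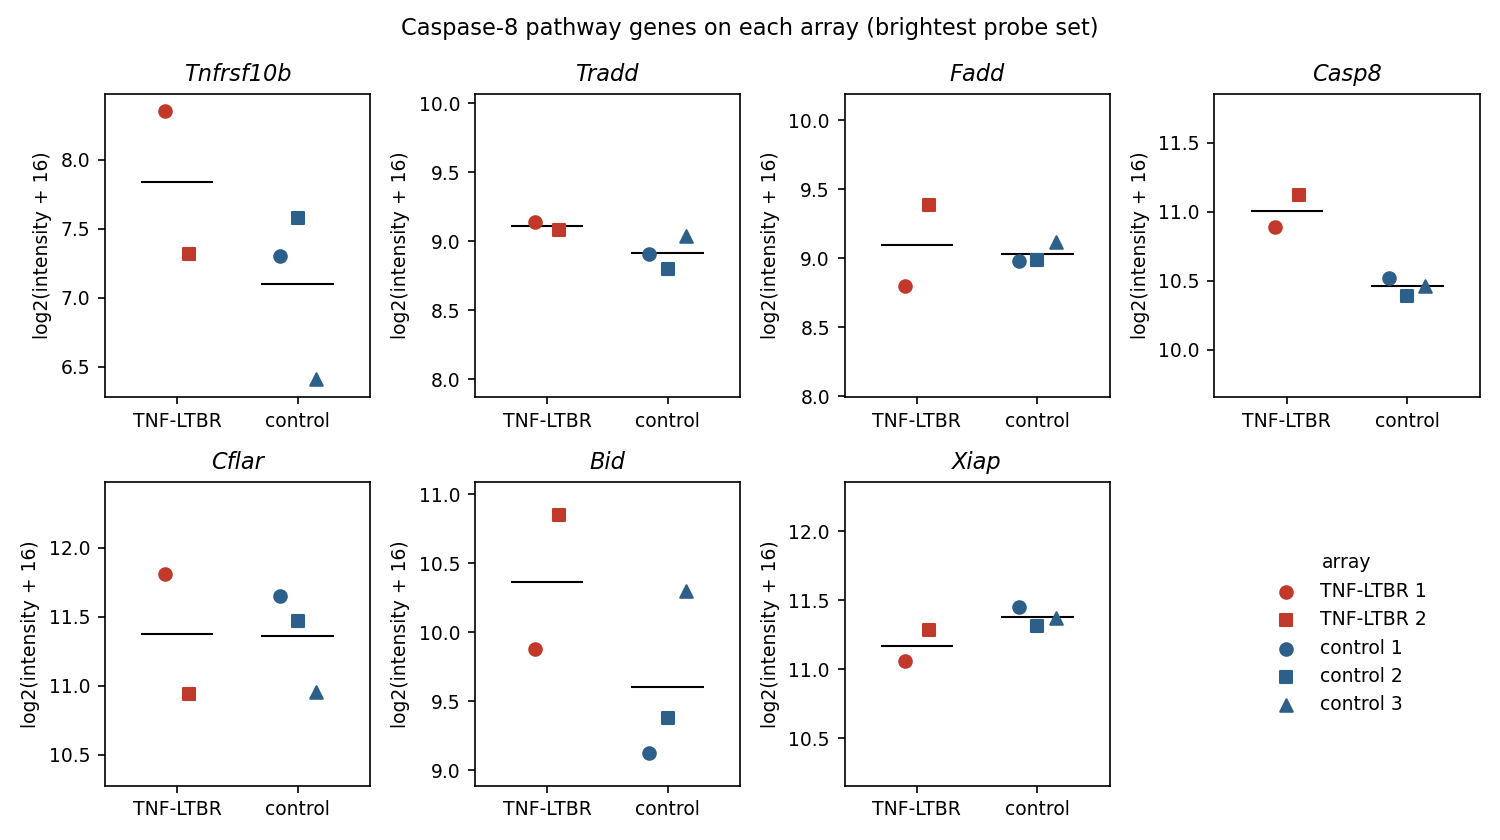
Values of the 7 pathway genes on each array, as log2(intensity + 16) of the brightest probe set, with TNF-LTBR at left and control at right. Points are arrays, bars are group means, and each panel spans the same height; Casp8 stands clear of the controls on both TNF-LTBR arrays, at 10.89 and 11.12, and Bid, Tnfrsf10b and Cflar spread widely within both groups.

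The receptor Tnfrsf10b, which encodes the mouse death receptor for TRAIL, was dim. Its brightest probe set read 310.6 and 143.8 on TNF-LTBR arrays 1 and 2, against 141.9, 175.9 and 68.9 on control arrays 1 to 3. Only TNF-LTBR array 1 stood above the controls, control array 3 was the lowest, and the groups overlapped. The difference was 0.74 (limma 95% interval -0.51 to 1.99, unadjusted p 0.192, adjusted p 0.999). It was 0.22 without TNF-LTBR replicate 1, 1.25 without TNF-LTBR replicate 2 and 0.39 without control replicate 3. The second probe set gave 199.8 and 138.5 in TNF-LTBR and 167.4, 121.3 and 71.0 in control, again highest on TNF-LTBR array 1 and lowest on control array 3. The brightest one ends in _s_at, a suffix used for probe sets that can match more than 1 transcript.

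The means of both adaptors differed little, with wide intervals. Tradd, the adaptor that binds TNF receptor 1 and hands on to TRAF2 and to FADD, read 550 and 525.9 in TNF-LTBR, against 464.3, 428.9 and 512.1 in control. Both TNF-LTBR arrays lay above the controls, although the gap to control array 3 was small. The difference was 0.20 (1.15-fold, interval -0.20 to 0.59, limma unadjusted p 0.259). The other probe sets of Tradd did not show it, with differences of 0.0026 and -0.066 and with TNF-LTBR arrays 2 and 1 as the highest and the lowest of the 5 on each. Averaged over its 3 probe sets, the Tradd difference was 0.045 and the groups overlapped.

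Fadd, the adaptor that brings procaspase-8 to the receptor, read 429.8 and 655.7 in TNF-LTBR, against 488.4, 491.7 and 542.1 in control. The TNF-LTBR arrays lay on opposite sides of all 3 controls. Its difference of 0.066 (interval -0.49 to 0.62, limma unadjusted p 0.777) became 0.36 without TNF-LTBR replicate 1. It turned to -0.23 without TNF-LTBR replicate 2. It was 0.11 without control replicate 3, 0.040 without control replicate 1 and 0.045 without control replicate 2. The dimmer Fadd probe set turned the order of the TNF-LTBR arrays round, with 152.7 and 100.6 in TNF-LTBR against 128.8, 129.8 and 122.5 in control.

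Casp8, the initiator caspase of the pathway, has a single probe set. It read 1882.4 and 2202 on the TNF-LTBR arrays, against 1454.7, 1323.8 and 1394.8 on the controls. Both TNF-LTBR arrays were above every control, and the 3 controls lay close together, within 0.13 on the log2 scale. Casp8 averaged 11.00 ± 0.16 in TNF-LTBR and 10.46 ± 0.07 in control. The difference was 0.55 ± 0.14 (SE; 1.46-fold, interval 0.19 to 0.90), with an unadjusted limma p of 0.00997, rank 30 of the 10916 genes, and an adjusted p of 0.999. It was positive under all 16 alternative settings, between 0.43 and 0.66, with adjusted p from 0.941 to 1.000. The unadjusted p was 0.0774 without TNF-LTBR replicate 2, the array with the higher value. Of the alternative settings, the filters, the probe set choices and the fit without intensity trend could not change the difference of this single probe set. It stayed at 0.55 under each of them. Earlier results on these same arrays already showed Casp8 higher, so its direction has no independent support here.

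Cflar, whose product resembles caspase-8 without its protease activity and restrains it, has 5 probe sets. The brightest read 3573.8 and 1955.2 in TNF-LTBR, against 3190.5, 2828.3 and 1966.5 in control. TNF-LTBR array 1 was the highest of all and TNF-LTBR array 2 the lowest, so the groups overlapped fully. The difference was 0.019 ± 0.34 (SE; interval -0.83 to 0.87, limma unadjusted p 0.956), an interval that holds changes of the size seen for Casp8 in either direction. It was -0.41 without TNF-LTBR replicate 1, 0.45 without TNF-LTBR replicate 2, -0.18 without control replicate 3, 0.16 without control replicate 1 and 0.077 without control replicate 2. The groups overlapped on the other 4 probe sets too, 3 of them higher by 0.15 to 0.47 and the dimmest, below the filter, lower, at -0.44. The probe sets of a gene share their target and are not replicates.

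Bid, which caspase-8 cleaves to carry the death signal to mitochondria, had the largest difference among the 7 genes and also a wide spread. It read 927.6 and 1829.7 in TNF-LTBR, against 546.2, 648.4 and 1241.7 in control. Control array 3 lay between the TNF-LTBR arrays, so the groups overlapped. The difference was 0.76 (1.70-fold, interval -0.39 to 1.92, limma unadjusted p 0.153). It was 0.28 without TNF-LTBR replicate 2, 1.25 without TNF-LTBR replicate 1 and 1.11 without control replicate 3. All 3 Bid probe sets ordered the 5 arrays alike, with TNF-LTBR array 2 highest, control array 3 next and control array 1 lowest, and differed by 0.42 to 0.76.

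Xiap, which encodes a direct inhibitor of caspases, was the only member whose brightest probe set was lower in TNF-LTBR. It read 2122 and 2466.5 in TNF-LTBR, against 2787.6, 2523.2 and 2639.1 in control. Both TNF-LTBR arrays lay below every control, array 2 by a small gap. The difference was -0.21 (0.865-fold, interval -0.54 to 0.13, limma unadjusted p 0.172). Without TNF-LTBR replicate 1 it was -0.10, and without TNF-LTBR replicate 2 it was -0.32. Under median centring the groups overlapped. The other 6 Xiap probe sets disagreed among themselves. On 2 dim ones both TNF-LTBR arrays were above all controls, with mean differences of 0.50 and 0.63. The gap was small on the first, with 82.6 on TNF-LTBR array 2 against 78 on control array 1. The second was below the brightness filter. On the other 4 the groups overlapped, with differences of -0.17 to -0.0034. Averaged over the 7 probe sets the Xiap difference was 0.074.

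**Figure D2:**
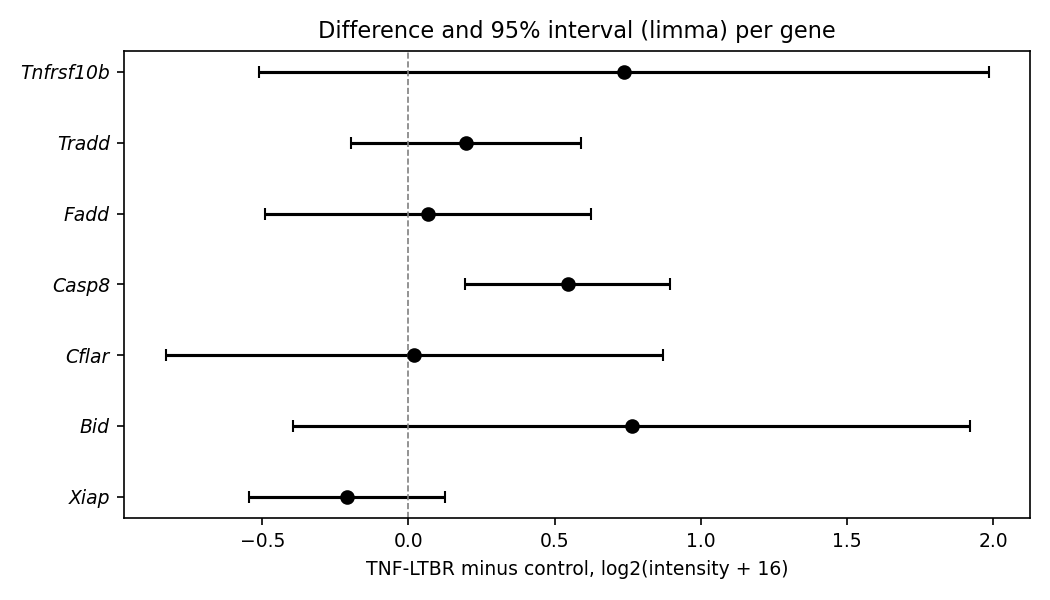
Difference between TNF-LTBR and control for the 7 pathway genes, in log2(intensity + 16), with points for the limma estimate on the brightest probe set and bars for its 95% interval. The interval of Casp8, 0.19 to 0.90, lies above 0, and the other 6 include 0; these intervals are not adjusted for the number of genes.

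Taken over every probe set, 15 of the 23 were higher and 8 lower in TNF-LTBR. The groups did not overlap for 5 of them, 4 above all controls (Casp8, Tradd and the dim Xiap pair) and 1 below, beside 8.8% and 6.84% of all probe sets. When each probe set was tested on its own, 19 of the 23 passed the filter, with a mean above an intensity of about 68.9, and 0 passed the adjusted threshold (limma, smallest adjusted p 1.000). The Casp8 probe set was the 1 with an unadjusted p under 0.05, against 1.97% of all 27060 tested. The 4 below the filter were the dimmest Cflar probe set and 3 of Xiap.

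**Figure D3:**
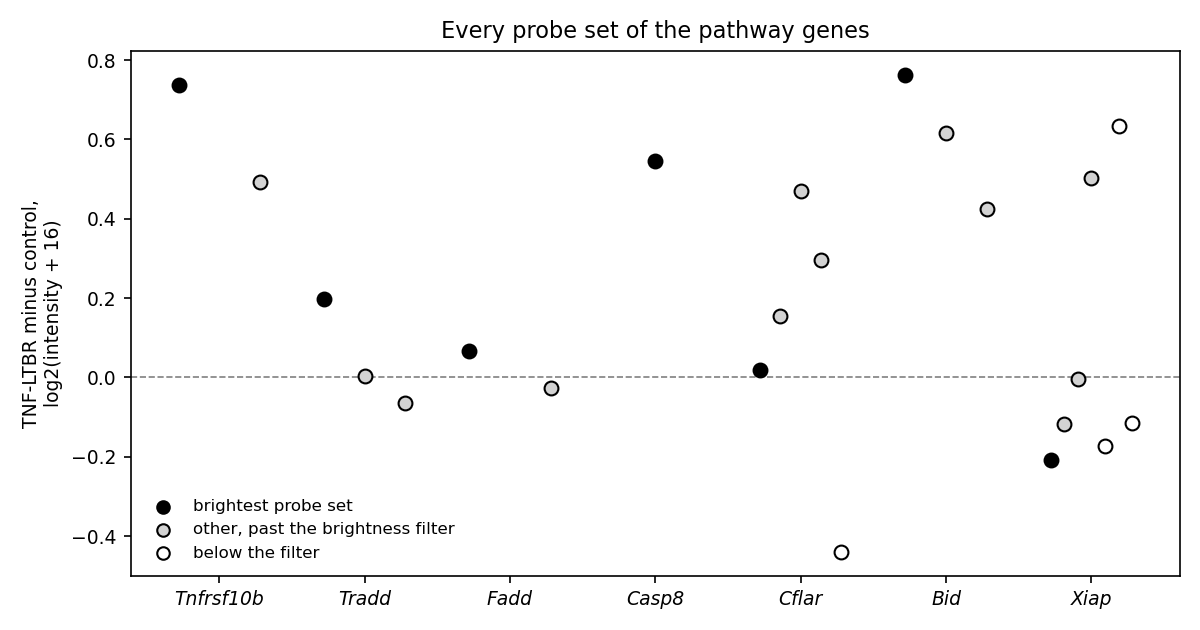
Differences for all 23 probe sets by gene, in log2(intensity + 16), with black points for the brightest probe set of a gene, grey for others past the brightness filter and white for those below it. The Bid and Tnfrsf10b probe sets lie above 0, from 0.42 to 0.76, and those of Xiap and Cflar lie on both sides of it.

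The members with a wide spread separated the arrays in a way that ran across the titles. TNF-LTBR array 2 and control array 3 were the 2 highest for Bid and for Fadd and the 2 lowest for Cflar, on the brightest probe sets. On the dimmer Fadd probe set they were the 2 lowest, and for Tnfrsf10b TNF-LTBR array 2 lay in the middle. A list of type I interferon genes had means of 9.38 and 11.22 on the TNF-LTBR arrays and 10.25, 8.98 and 11.02 on the controls, on the log2 scale, so the same 2 arrays were highest there. Xaf1, an interferon-inducible partner of XIAP, read 876.6 and 2647.6 in TNF-LTBR, against 1435.2, 526.1 and 2209.9 in control, in that same order of arrays. Casp8 was also highest on TNF-LTBR array 2 and lowest on control array 2, as the list was, but it was second highest on TNF-LTBR array 1, where the list was second lowest. The part of this array state in the values of Casp8, Bid, Fadd and Cflar was not tested.

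Ripk3, the kinase that drives necroptosis and was singled out after its values were seen, ranged widest among the tested pathway genes. It read 779.5 and 42.1 in TNF-LTBR, against 248.6, 599.9 and 65.4 in control. The list of macrophage markers had means of 10.02 and 8.11 in TNF-LTBR and 9.23, 9.92 and 8.40 in control, which puts the 5 arrays in the same order as Ripk3. Of the 9 markers in the list, 6 passed the filter. Lyz2 spread widest, at 3933.6 and 66.5 in TNF-LTBR and 1088.5, 3409.2 and 186.3 in control, and it alone held the Ripk3 order. TNF-LTBR array 2 was also lowest for Cd68, Adgre1 and Csf1r, but not for Cd14 and Cd53. The leukocyte marker Ptprc was below the filter. The part of these markers in the Ripk3 values was not tested. In such bulk cultures, fewer cells of a type and less RNA per cell cannot be told apart.

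The labelled cell type was only partly borne out by its markers. Of 15 endothelial markers, 6 passed the brightness filter, among them Eng, Kdr and Esam, and Pecam1, Cdh5, Tek, Tie1, Cldn5 and Vwf did not. Summed endothelial intensity was 3625 and 2834 in TNF-LTBR, against 2922 to 4248 in control. All 10 fibroblast and pericyte markers passed, with sums of 74039.5 and 96816 in TNF-LTBR against 51127 to 92621 in control. Smooth muscle markers, 7 of 10 past the filter, summed to 13727 and 11518 in TNF-LTBR and 11955 to 24394 in control, with Myh11 and Myocd below the filter. Macrophage sums were 9128 and 3066 in TNF-LTBR and 2723 to 8177 in control, and 1 of 7 lymphocyte markers passed. Array medians lay between 109.9 and 120.7.

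**Figure D4:**
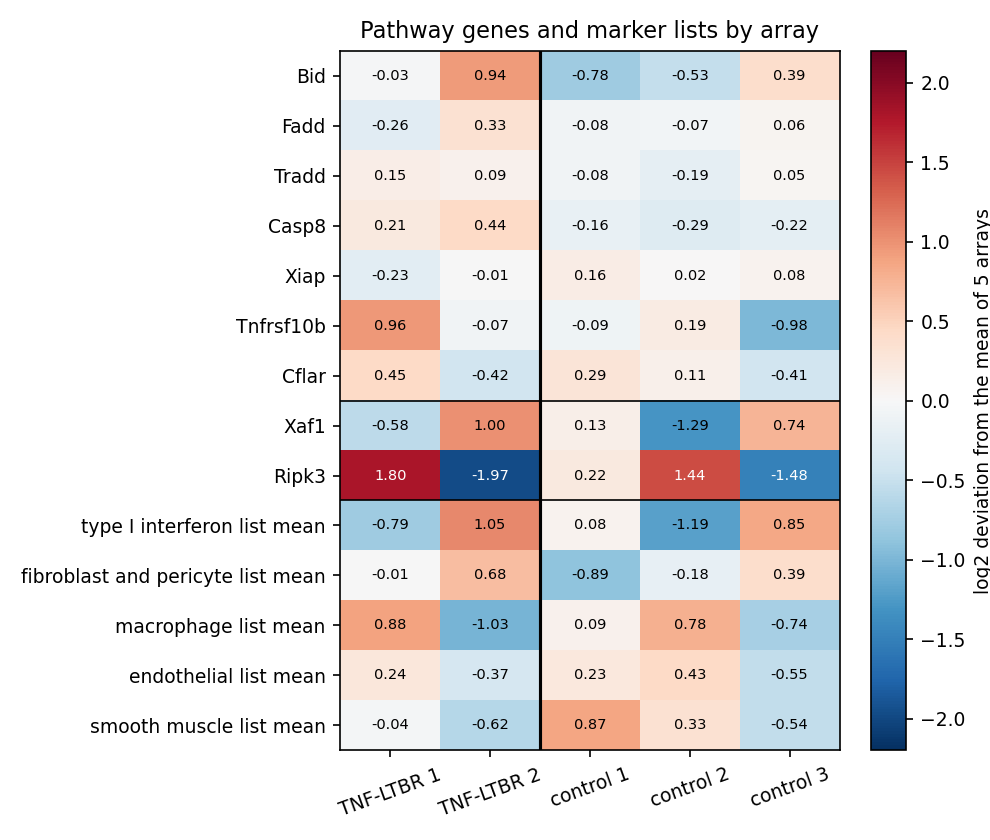
Deviation of each array from the mean of the 5 arrays, in log2 units, for the 7 pathway genes, for Xaf1 and Ripk3, and for the means of 5 marker lists, with the TNF-LTBR arrays in the left columns and control in the right. Bid (0.94 and 0.39) and the interferon list (1.05 and 0.85) are both high on TNF-LTBR array 2 and control array 3, and Casp8 is high only on the TNF-LTBR arrays (0.21 and 0.44).

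Other genes of the pathway were taken from 6 lists, and 0 of their members passed the adjusted threshold in either direction (limma, adjusted p 0.999 for each gene named here). In the list of ubiquitin and kinase factors of the TNF receptor complex, 12 of 17 tested genes were higher and 5 lower, with a median of 0.036. Of these, 3 had an unadjusted p under 0.05, all higher, against 0.962% of all genes tested. They were Birc3 and Birc2, which encode the ubiquitin ligases cIAP2 and cIAP1 that keep RIPK1 from forming a death complex with caspase-8, and their partner Traf2. Birc3 read 1961.5 and 1994.5 in TNF-LTBR, against 611.3, 556.3 and 811.3 in control, a difference of 1.58. Birc2 read 3026.5 and 2866.1 in TNF-LTBR, against 919.5, 938.9 and 1376.3, a difference of 1.46. Traf2 read 398.3 and 560.7 in TNF-LTBR, against 272, 247.3 and 266.7, a difference of 0.82. On all 3 genes both TNF-LTBR arrays were above every control, as for 3 of the 17 tested genes in the list and 6.94% of all genes tested. All 3 differences exceeded that of Casp8. The 3 were named for their small p, from a list chosen with earlier results of these data known. Their separation and size are therefore no independent support.

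Death ligands and receptors stayed without such a gene. Of 10 with a probe set 5 passed the filter, and Tnf, Lta, Fasl and Tnfsf10 transcripts were below it. Of the 5, 3 were higher and 2 lower, the groups overlapped for each, and the median was 0.25. The smallest p belonged to Tnfrsf23 and Tnfrsf22, which encode mouse decoy receptors for TRAIL, at 0.33 and 0.28, and to Fas, the receptor for FAS ligand, at 0.25 (limma unadjusted p 0.339, 0.467 and 0.646). Among modulators of the death-inducing complex, 5 of 8 were higher and 3 lower, with a median of 0.026. Daxx, a FAS-binding protein, was higher in TNF-LTBR by 0.22 on average. Its groups separated only narrowly, with 988 on TNF-LTBR array 1 against 984 on control array 3. Dedd, a protein with a death effector domain, differed by 0.13 and Pea15a, which binds FADD and caspase-8, by -0.16.

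In the necroptosis list, 3 of 4 genes were higher and 1 lower, with a median of 0.26. Zbp1, a sensor of nucleic acids that engages RIPK3, read 479.8 and 186.9 in TNF-LTBR, against 66.1, 127.1 and 48.6 in control. Both TNF-LTBR arrays were above the controls, by 1.80 on average (interval 0.45 to 3.15, limma unadjusted p 0.0183). The mean log2 value of Zbp1 was 8.31 in TNF-LTBR and 6.51 in control, and the lowest mean tested was 7.17. Zbp1 thus passed the brightness filter only through the TNF-LTBR arrays, which limits what its p and its separation can show. Mlkl, the pseudokinase that ruptures the membrane, differed by 0.48 and Ticam1, the adaptor of TLR3, by 0.035, both with overlapping groups.

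In the list for the mitochondrial step and executioner caspases, 6 of 10 tested genes were higher and 4 lower, with a median of 0.044. Htra2, a mitochondrial protease that neutralises XIAP once released, read 813.9 and 918.8 in TNF-LTBR, against 550.5, 718.9 and 576.5 in control, a difference of 0.49 (limma unadjusted p 0.0387). Parp1, a substrate of executioner caspases, differed by 0.23 without overlap and Dffa, the inhibitor of the caspase-activated DNase, by -0.20 with overlap. Of 5 tested genes among other IAPs and XIAP partners, 4 were higher and 1 lower, with a median of 0.065, and the groups overlapped for each. Birc5, the mitotic protein survivin, differed by 0.51, Xaf1 by 0.36 and Birc6, a giant ubiquitin ligase, by -0.072.

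**Figure D5:**
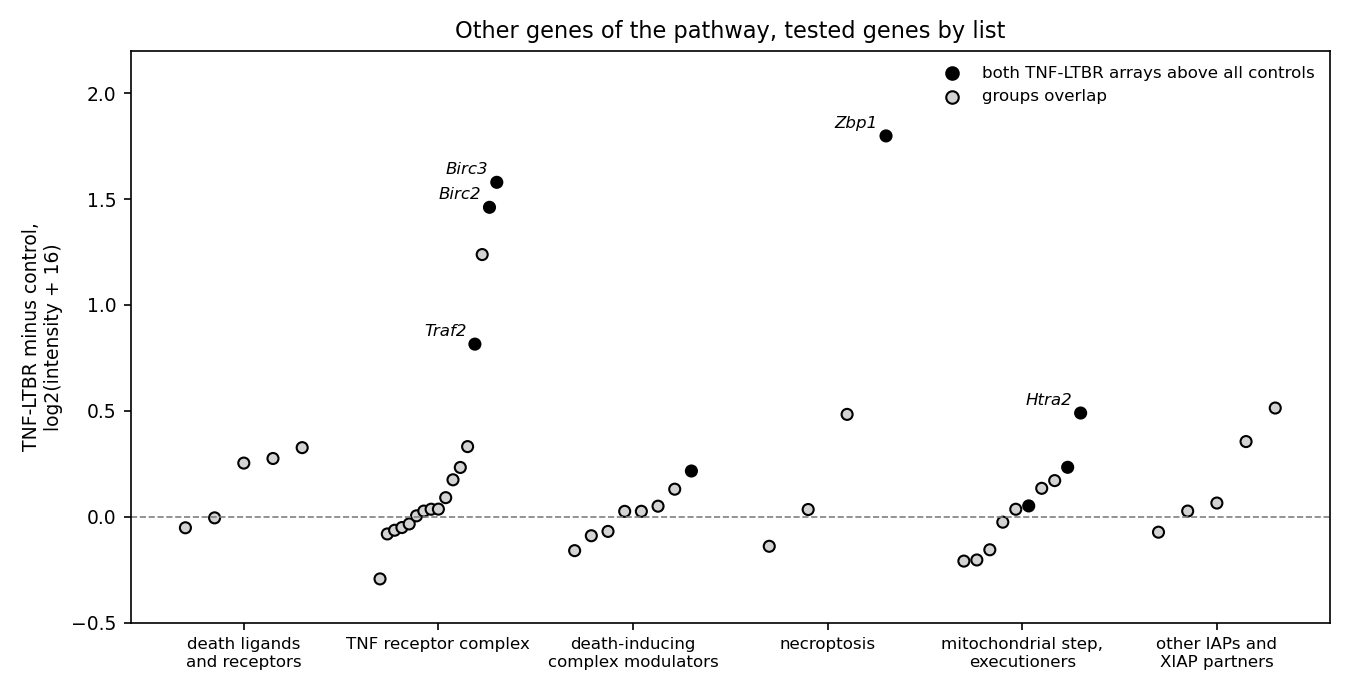
Differences of the tested genes in the 6 other pathway lists, in log2(intensity + 16), with TNF-LTBR minus control on the vertical axis, black points where both TNF-LTBR arrays were above all controls, and names for those of these with an unadjusted p under 0.05. Zbp1 (1.80), Birc3 (1.58) and Birc2 (1.46) stand highest, and most other points lie near 0. Zbp1 passed the brightness filter only through its TNF-LTBR values.

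Over the 5 arrays, the genes whose centred log2 values were nearest to those of Casp8 were Plaat3, AU020206, Prr16, Trim65 and S1pr1. Their root mean square differences from Casp8 were 0.0357, 0.0541, 0.0560, 0.0595 and 0.0716 on the log2 scale. Their own differences between TNF-LTBR and control lay between 0.44 and 0.55, a closeness to Casp8 that the way they were chosen fixes.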

How the data were processed

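RNA was measured on 5 arrays, 1-colour oligonucleotide arrays, with groups and replicate numbers taken from the titles. The authors deposited linear array intensities, with 1 value for each probe set on each array. GCOS 1.4 is named in the submitters' processing notes. The probe set algorithm, scaling target and build are not stated there. The lowest value was 0.1 on each array, and the mean without the outer 2% at each end lay between 499.3 and 499.9 on the 5 arrays, which shows scaling before deposit. Array medians differed by a ratio of up to 1.10, so values were used as deposited.

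Symbols came from the platform annotation, in which 34958 probe sets had 1 symbol, 932 several and 9211 none. Values were transformed as log2(intensity + 16) and fitted in R 4.3.3 with limma 3.58.1 (lmFit, eBayes with intensity trend), with two-sided p-values adjusted after Benjamini and Hochberg over all genes tested, a threshold of 0.05 and 3 residual degrees of freedom. A second fit took every probe set. All members were named, with all other list genes past the threshold or, where a list had none, up to 3 with the smallest p; the marker lists are given by counts and sums. Likeness to Casp8 was the root mean square difference of centred values. The members and lists were chosen with earlier results of these data known. Alternatives were other pseudocounts, filters, normalizations, probe set choices and variance models, the replicate block, and leaving out each array. Replicate numbers 1 and 2 occur in both groups, but nothing says that they pair the cultures.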

Additional observations from a re-analysis of the deposited data

How the results depend on the processing

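The count of 0 members past the adjusted threshold was the same under all 16 alternatives, and so was the count of 0 among all genes (limma, with 113 to 481 genes at an unadjusted p under 0.05). The differences of Casp8, Tradd and Bid were positive under all 16, and that of Tnfrsf10b under the 15 that tested it. A change of filter or of intensity trend cannot alter such a difference, so the settings were not all separate checks. The Cflar difference turned negative under median centring (-0.0070), array quality weights (-0.092), the replicate block (-0.18), without TNF-LTBR replicate 1 (-0.41) and without control replicate 3 (-0.18). Fadd turned without TNF-LTBR replicate 2 (-0.23), and Xiap with the mean of all its probe sets (0.074). Leaving out 1 array gave -0.41 to 0.45 for Cflar and -0.23 to 0.36 for Fadd. Members whose groups did not overlap numbered 3, where 6.94% of all genes lay above all controls and 6.34% below. They numbered 2 under median centring (5.85% and 6.76%) and 1 with the mean of all probe sets of a gene (8.02% and 5.74%). Leaving out 1 array gave 3 to 6, with 6 without TNF-LTBR replicate 1 or without TNF-LTBR replicate 2, when 1 remaining array has to lie outside the controls and 20% to 27% of all genes did so in each direction. Without 1 control array the counts were 3 or 4, beside 10.2% to 14.5% of all genes in each direction. The cause of the other shifts was not tested. With the replicate block, 0 members passed and Casp8 differed by 0.55 (limma unadjusted p 0.0795). Only control array 3 has number 3, so the block takes up that array. Each member, Cflar and Bid among them, then had the same difference as without control replicate 3. Deviations of same-numbered arrays correlated at 0.127 for number 1 and at -0.80 for number 2. With 2 TNF-LTBR arrays, the deviations of one mirror those of the other, so these values are not separate checks of a pairing. With the replicate block Bid differed by 1.11 (limma unadjusted p 0.0221, adjusted p 1.000). Bid and not Casp8 was then the 1 member under 0.05 before adjustment. No adjusted call changed with it. The precision rests on 5 arrays, and no detection call accompanies the intensities, so dim probe sets have no stated floor.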
